A study of Homo sapiens with 3 samples.

Results

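The 37 genes of the human mitochondrial chromosome were described in 3 established prostate cancer cell lines, as all genes that the count tables place on chromosome MT among 58735 annotated genes. They comprise 13 genes for mRNAs, 2 for rRNAs and 22 for tRNAs. Bulk total RNA was sequenced from cultures of LNCAP, PC3 and DU145, which are known to derive from metastases in a lymph node, bone and brain, with 1 library for each. LNCAP stands in the series design for androgen-dependent cancer, and the others for castration-resistant cancer, which grows despite low androgen; no treatment is labelled. All lines were cultured with 10% fetal bovine serum, and the media are listed without a statement of which line received which. Each group is 1 library of 1 line, so no difference below has a replicate check, and the difference between lines cannot be told apart from that between single cultures.

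The mitochondrial chromosome is a small circle that is copied and transcribed inside the mitochondrion by its own polymerases. Each strand is read as a long precursor, and the tRNAs that lie between most of the other genes are cut out of it, which frees the mRNAs and rRNAs on either side. The mRNAs encode membrane subunits of respiratory complexes I, III and IV and of the ATP synthase (complex V), the rRNAs form the mitochondrial ribosome, and the tRNAs serve its translation. All other subunits and all proteins that copy, transcribe and process this genome come from nuclear genes.

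In the annotation, 12 mRNA genes, both rRNA genes and 14 tRNA genes lie on the plus strand, and MT-ND6 and 8 tRNA genes on the minus strand. The sequences below are those of GENCODE release 29 (GRCh38), whose start, end and strand equalled those in the count tables for 37 of 37 genes. They are reference sequences and hold no variants of the lines. The 5 tRNA genes with the most counts are shown first, because the results for tRNAs turn on them, with the anticodon in capitals, 5′ to 3′.
MT-TC (tRNA for cysteine, MT, 5761 to 5826, minus strand): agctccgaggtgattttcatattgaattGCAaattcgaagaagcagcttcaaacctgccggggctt
MT-TP (tRNA for proline, MT, 15956 to 16023, minus strand): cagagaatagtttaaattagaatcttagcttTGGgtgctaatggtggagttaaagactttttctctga
MT-TN (tRNA for asparagine, MT, 5657 to 5729, minus strand): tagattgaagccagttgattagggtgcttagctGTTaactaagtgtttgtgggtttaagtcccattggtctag
MT-TY (tRNA for tyrosine, MT, 5826 to 5891, minus strand): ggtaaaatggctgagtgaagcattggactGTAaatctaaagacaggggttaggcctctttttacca
MT-TL1 (a tRNA for leucine, MT, 3230 to 3304, plus strand): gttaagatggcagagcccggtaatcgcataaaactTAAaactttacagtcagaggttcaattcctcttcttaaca

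MT-TL1 lies directly after the large rRNA gene and before MT-ND1, and is known for the site where MTERF1, a termination factor, binds. MT-ATP8 is shown next because its counts were far below those of its neighbour, with the 46 bases it shares with the start of MT-ATP6 in capitals. Both genes are read from a shared mRNA, as are MT-ND4L and MT-ND4, which overlap by 7 bases.
MT-ATP8 (MT, 8366 to 8572, plus strand): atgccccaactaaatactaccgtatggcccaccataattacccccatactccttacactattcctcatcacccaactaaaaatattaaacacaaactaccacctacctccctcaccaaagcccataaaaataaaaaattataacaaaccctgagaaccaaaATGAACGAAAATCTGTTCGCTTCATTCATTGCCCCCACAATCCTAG

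The ends of the mRNA genes show the tight packing. In 6 of 13 the annotated gene stops with T or TA, an incomplete stop codon that is completed when the poly(A) tail is added. The last 18 bases of 4 of them, with the incomplete codon in capitals, are given here.
MT-ND1: cattccccctcaaaccTA
MT-ND2: ttatactaataatcttaT
MT-CO3: tctattgatgagggtctT
MT-ND4: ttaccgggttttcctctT

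Library totals were 15319045 to 15878546 counts. Levels are given as normalised CPM, a count scaled to a common library size, scaled by TMM over the 18025 genes with 1 CPM or more in at least 1 library, and where a gene had 0 counts up to 3 remained possible, or 0.189 to 0.196 CPM before scaling. Intervals are exact 95% intervals and cover counting error only. Markers set LNCAP apart from the others as labelled, and none was chosen to tell PC3 from DU145. KLK3, which encodes prostate-specific antigen, reached 2271 CPM in LNCAP and was at 0 in the others. CAV1, CD44 and AXL, known from androgen-independent lines, summed to 0.0640 CPM in LNCAP, to 991 in PC3 and to 1506 in DU145. The epithelial markers KRT8, KRT18 and EPCAM summed to 738, 455 and 1608 CPM in the same order. Among 11 markers of fibroblasts, leukocytes and endothelium, the sums were at or below 20.2 CPM per cell type and library, led by PECAM1 and COL3A1 in PC3, and LUM and CD3E were at 0 in all 3.

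Every class of mitochondrial RNA took the largest share of counts in LNCAP. The mRNA genes held 6.13% of all counts in LNCAP (interval 6.11 to 6.14), 3.72% in PC3 (3.71 to 3.73) and 4.79% in DU145 (4.78 to 4.80). The rRNA genes held 1.80% (1.796 to 1.809), 0.607% (0.603 to 0.611) and 0.784% (0.779 to 0.788) in the same order. The tRNA genes held 0.0372% (0.0362 to 0.0382), 0.0264% (0.0256 to 0.0272) and 0.0239% (0.0231 to 0.0247). The rRNAs were furthest apart, and the intervals of the libraries did not overlap in any class. Since the RNA is bulk, fewer cells with mitochondrial RNA and less of it per cell cannot be told apart. As these are shares of all counts, less mitochondrial RNA and more of other RNA cannot be told apart either.

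**Figure D1:**
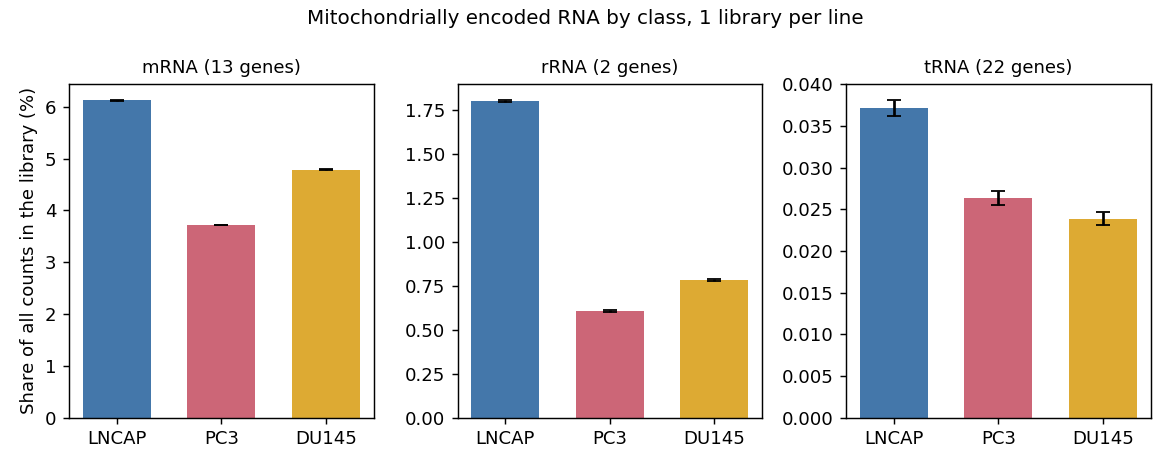
Share of all counts in the library (percent, each axis from 0) taken by mitochondrial mRNA, rRNA and tRNA genes in the LNCAP, PC3 and DU145 libraries, with exact 95% counting intervals. The LNCAP bar is the highest in each panel, and the rRNA share stands at 1.80%, 0.607% and 0.784%.

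Of the rRNA and mRNA genes, the 2 rRNA genes lay furthest apart between the libraries. MT-RNR2, the large rRNA (MT, 1671 to 3229), stood at 15722 CPM in LNCAP and at 5558 and 7133 CPM in PC3 and DU145. Its level was 2.83-fold lower in PC3 than in LNCAP (2.81 to 2.85) and 2.20-fold lower in DU145 (2.19 to 2.22). MT-RNR1, the small rRNA (MT, 648 to 1601), had levels of 2028, 526 and 810.1 CPM in the same order. It was 3.86-fold lower in PC3 (3.76 to 3.95) and 2.50-fold lower in DU145 (2.45 to 2.55). Both were highest in LNCAP and lowest in PC3.

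The rRNAs were also lower relative to the mRNAs of their own library, a comparison that no scaling between libraries can move. For each mRNA count there were 0.294 rRNA counts in LNCAP (0.293 to 0.295), 0.163 in PC3 (0.162 to 0.164) and 0.164 in DU145 (0.163 to 0.165). PC3 and DU145 differed from LNCAP in this ratio and had overlapping intervals with each other. MT-RNR2 is followed by MT-TL1 and then by MT-ND1, the first mRNA gene of the precursor. Per base of gene length, MT-RNR2 had 2.77 times the counts of MT-ND1 in LNCAP (2.75 to 2.80), 1.596 times in PC3 (1.575 to 1.616) and 1.40 times in DU145 (1.39 to 1.42). The balance between the rRNAs differed as well, with 7.75 MT-RNR2 counts for each MT-RNR1 count in LNCAP (7.66 to 7.85), 10.6 in PC3 (10.3 to 10.8) and 8.81 in DU145 (8.65 to 8.97).

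The labels give total RNA and standard Illumina libraries, without stating whether rRNA was removed or polyadenylated RNA selected. Nuclear RNAs that mostly lack a poly(A) tail, a group chosen after the mitochondrial values were seen, also differed between the libraries. The 71 replication histone genes summed to 819 CPM in LNCAP and to 196 and 598 CPM in PC3 and DU145, a ratio of 0.239 in PC3 (0.229 to 0.249) and 0.731 in DU145 (0.712 to 0.751) against LNCAP. RN7SL1, RN7SL2, RN7SK, RMRP and RPPH1, small RNAs of protein export, transcription control and RNA cleavage, summed to 31.5, 8.70 and 3.77 CPM. The snoRNA genes summed to 60.2, 40.2 and 38.7 CPM, and the snRNA genes to 48.5, 44.4 and 29.4 CPM. All of these sums were highest in LNCAP, but for the snRNA genes the ratio in PC3 was 0.916 (0.825 to 1.02), an interval that holds 1. Nuclear rRNA genes had only 21, 12 and 13 counts. Their ratios to LNCAP were 0.584 in PC3 (0.262 to 1.24) and 0.618 in DU145 (0.284 to 1.29), and both intervals hold 1. The part of these RNAs in the result was not tested.

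Among the mRNA genes, levels differed less than those of the rRNAs, and PC3 stood furthest from LNCAP. In PC3, 12 of 13 mRNA genes were below LNCAP beyond counting error, and for MT-ND2 the interval held a ratio of 1. Their median log2 ratio was -0.70, beside -0.01 over all genes tested, and 4 of 13 were at least 2-fold lower, MT-CO3, MT-ATP8, MT-ND5 and MT-ND6. With both rRNA genes and 14 tRNA genes, 20 of the 33 members tested were at least 2-fold lower and none higher, while 23.6% of all genes tested were at least 2-fold lower (46.2% either way). In DU145, 10 mRNA genes were below LNCAP and 3 above it beyond counting error, with a median log2 ratio of -0.15 beside -0.00334 over all genes. None of the 13 was 2-fold apart there, whereas both rRNA genes and 7 tRNA genes were at least 2-fold lower. These were 9 of 33 members, beside 23.1% of all genes tested (46.0% either way). Of the 33 members, 4 tRNA genes reached 1 CPM in LNCAP alone. The counts of 20 and 9 therefore describe the members and support nothing. Both comparisons share the LNCAP library.

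**Figure D2:**
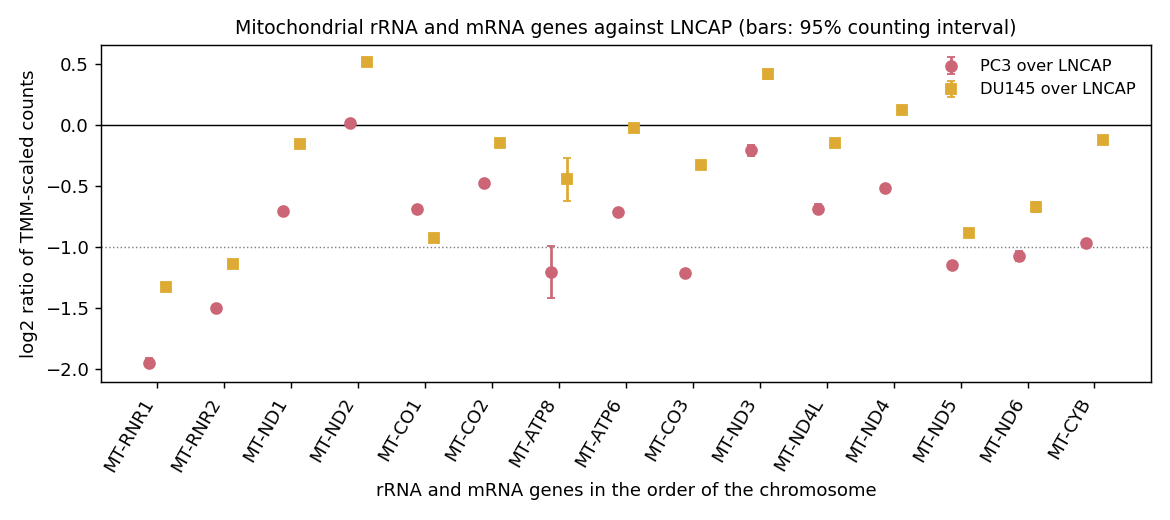
Log2 ratio of TMM-scaled counts against LNCAP for the 2 rRNA and 13 mRNA genes in chromosome order, in PC3 (circles) and DU145 (squares), with 95% counting intervals; the dotted line marks a 2-fold lower level. The rRNA genes lie lowest, MT-ND2 and MT-ND3 lie highest in both lines, and MT-CO1 is the gene for which DU145 lies below PC3.

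Complex I, the NADH dehydrogenase, has 7 subunits encoded here, and their mRNAs differed in their level relative to LNCAP. MT-ND1 stood at 3476 CPM in LNCAP, 2136 in PC3 and 3122 in DU145. MT-ND2 stood at 2774, 2806 and 3970 CPM, so that LNCAP and PC3 were close and DU145 was above both. Its ratio to LNCAP was 1.01 in PC3 (0.998 to 1.03), which turned below 1 when libraries were scaled by total counts, and 1.43 in DU145 (1.41 to 1.45). MT-ND3 was also highest in DU145, at 514, 446 and 686 CPM in the same order of libraries, with 0.868 times the LNCAP level in PC3 (0.840 to 0.896) and 1.34 times in DU145 (1.30 to 1.37).

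MT-ND4 stood at 8249 CPM in LNCAP, 5781 in PC3 and 8987 in DU145, and MT-ND4L, on the same mRNA, at 944, 588 and 852 CPM. Against LNCAP the pair gave ratios of 0.701 and 0.623 in PC3, and of 1.09 (1.08 to 1.10) and 0.903 (0.882 to 0.924) in DU145, so in DU145 these overlapping genes lay on opposite sides of LNCAP. Per base of gene length MT-ND4 had 1.88, 2.12 and 2.27 times the counts of MT-ND4L in LNCAP, PC3 and DU145.

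MT-ND5 and MT-ND6 are encoded on opposite strands with ends that meet, and both were lower in PC3 and DU145. MT-ND5 stood at 3540 CPM in LNCAP, 1597 in PC3 and 1924 in DU145, 2.22-fold lower in PC3 (2.18 to 2.25) and 1.84-fold lower in DU145 (1.81 to 1.87). MT-ND6, the only mRNA gene of the minus strand, stood at 821, 391 and 517 CPM, 2.102-fold lower (2.04 to 2.17) and 1.59-fold lower (1.545 to 1.63). Its base makeup is the reverse of the others, with 35.6% G and 7.05% C against 6.28% to 16.2% G in the other mRNA genes. The strand setting of the counting is unknown, so reads of the opposite strand could be included in either gene.

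Complex III has 1 subunit encoded here, cytochrome b. Its gene MT-CYB stood at 4233 CPM in LNCAP, 2167 in PC3 and 3892 in DU145. It was 1.95-fold lower in PC3 (1.93 to 1.98) and 1.09-fold lower in DU145 (1.08 to 1.10), so that DU145 was near LNCAP and PC3 was apart from both.

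Complex IV, cytochrome c oxidase, has its 3 core subunits encoded here, and these mRNAs did not keep together. MT-CO1, the catalytic subunit, stood at 19481 CPM in LNCAP, 12077 in PC3 and 10250 in DU145, and was the mRNA gene with the most counts in each library. It was 1.61-fold lower in PC3 (1.604 to 1.622) and 1.90-fold lower in DU145 (1.89 to 1.91). Among the 13 mRNA genes it alone was lowest in DU145, while 11 were lowest in PC3 and MT-ND2 was lowest in LNCAP, where PC3 did not differ beyond counting error. MT-CO2 stood at 5141 CPM in LNCAP, 3702 in PC3 and 4641 in DU145, and MT-CO3 at 6958, 3007 and 5565 CPM. MT-CO3 was 2.31-fold lower in PC3 (2.29 to 2.34), at the low end of the mRNA genes, and 1.25-fold lower in DU145 (1.24 to 1.26).

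Complex V, the ATP synthase, has 2 subunits encoded here on a shared mRNA. MT-ATP6 stood at 4155 CPM in LNCAP, 2543 in PC3 and 4084 in DU145. Its DU145 level was 0.983 times that of LNCAP (0.972 to 0.994), and this sign turned with DESeq2 size factors (log2 ratio 0.000252). MT-ATP8 stood at 39.9, 17.3 and 29.4 CPM, 2.30-fold lower in PC3 (1.99 to 2.66) and 1.36-fold lower in DU145 (1.20 to 1.54). Per base of gene length, MT-ATP6 had 31.7 times the counts of MT-ATP8 in LNCAP (29.3 to 34.3), 44.6 times in PC3 (39.5 to 50.5) and 42.3 times in DU145 (38.6 to 46.5). How reads over the shared bases printed above were assigned is not given in the sources used here, and the MT-ATP8 level is uncertain for this reason.

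The makeup of the mRNA counts separates which genes differ from how much mitochondrial mRNA there is. MT-CO1 took 32.3% of the mRNA counts in LNCAP (32.2 to 32.4) and 32.4% in PC3 (32.3 to 32.5), but 21.1% in DU145 (21.0 to 21.2). MT-ND4 was next and took 13.7%, 15.5% and 18.5% in LNCAP, PC3 and DU145. MT-ND2 took 4.60% in LNCAP (4.56 to 4.64), 7.53% in PC3 (7.46 to 7.60) and 8.18% in DU145 (8.12 to 8.24). Its share was larger in both other lines than in LNCAP. MT-CO3 took 11.5% in LNCAP and in DU145 and 8.07% in PC3. MT-ND5 took 5.87%, 4.29% and 3.97%, which made it and MT-ND6 (1.36%, 1.05% and 1.06%) smaller parts of the mRNA outside LNCAP. By complex, complex I genes took 33.7%, 36.9% and 41.3%, and complex IV genes 52.3%, 50.4% and 42.2%. As shares of a fixed whole, larger shares need not be higher levels. Complex I genes summed to 20317 CPM in LNCAP, 13744 in PC3 and 20058 in DU145.

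**Figure D3:**
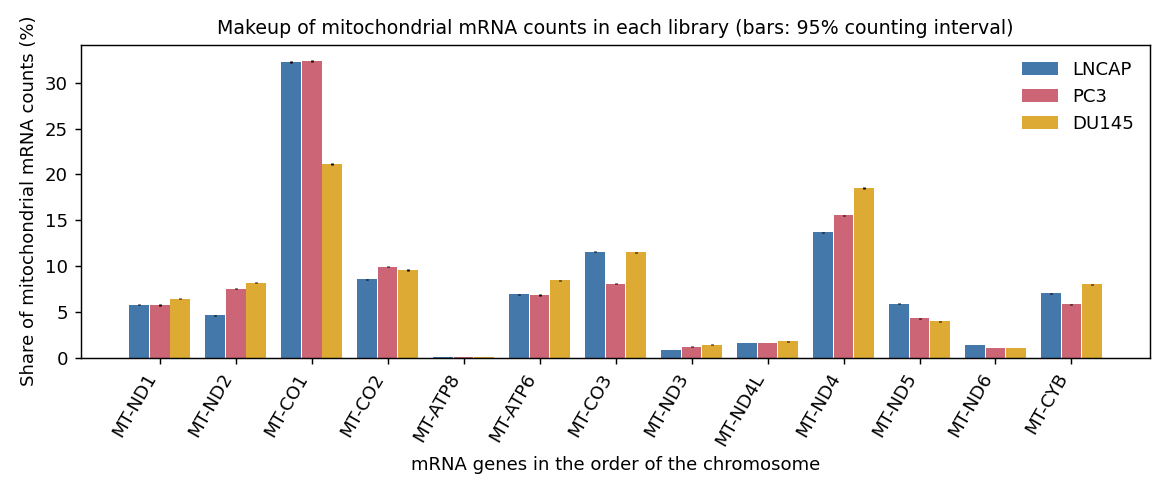
Share of the summed mitochondrial mRNA counts (percent, axis from 0) held by each of the 13 mRNA genes in chromosome order, in the LNCAP, PC3 and DU145 libraries, with 95% counting intervals. MT-CO1 stands at 32.3%, 32.4% and 21.1%, and MT-ND2 and MT-ND4 stand higher in PC3 and DU145 than in LNCAP.

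To rank levels of different genes per length, the FPKM scale that the authors deposited was used (fragments per kilobase of gene and per sequencing depth). Among the mRNA genes of LNCAP, MT-CO1 led at 12403 FPKM, followed by MT-CO3 at 8713 and MT-CO2 at 7379. In PC3 MT-CO1 led at 7775 FPKM, followed by MT-CO2 at 5373 and MT-ND4 at 4165. In DU145 MT-CO3 led at 7090.02 FPKM, followed by MT-CO2 at 6777 and MT-CO1 at 6639. The complex IV genes thus led in LNCAP and DU145 in a different order. Per base, MT-CO1 had 1.68 times the counts of MT-CO2 in LNCAP (1.67 to 1.69), 1.45 times in PC3 (1.43 to 1.46) and 0.980 times in DU145 (0.971 to 0.988). Against MT-ND2 it had 4.75, 2.91 and 1.74 times the counts per base. Of the 13 mRNA genes MT-ATP8 was lowest in each library, at 189, 83.1 and 142 FPKM.

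The tRNA genes, 59 to 75 bases long, are shorter than usual sequencing fragments, and their counts were low. They summed to 5725 (LNCAP), 4040 (PC3) and 3792 (DU145) counts, and MT-TS2 had none in any library. Counts from cut tRNAs and from uncut precursor that spans a tRNA gene cannot be told apart here. Of the 22 genes, 18 reached 1 CPM in a library, 4 of them in LNCAP alone (MT-TQ, MT-TS1, MT-TK and MT-TL2). Counts over those 18 therefore describe the members and support nothing. In PC3 14 were at least 2-fold lower than in LNCAP and none higher, beside 23.6% of all genes tested that were lower, and in DU145 7 were lower and none higher, beside 23.1%.

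The 14 plus strand tRNA genes summed to 105 CPM in LNCAP but to 24.3 and 43.0 CPM in PC3 and DU145. Their sum was 4.32-fold lower in PC3 (3.86 to 4.85) and 2.45-fold lower in DU145 (2.24 to 2.68). The 8 minus strand genes summed to 261, 240 and 199 CPM in that order, 1.09-fold lower (1.04 to 1.14) and 1.31-fold lower (1.25 to 1.37). Strand here is that of the annotated gene. The strand setting of the counting is unknown, so reads of the opposite strand could be included in any of these genes. For each count on plus strand genes there were 2.48 on minus strand genes in LNCAP (2.34 to 2.63), 9.86 in PC3 (8.86 to 10.9995) and 4.63 in DU145 (4.26 to 5.04). This gap rested on the 4 minus strand genes with the most counts, MT-TC, MT-TP, MT-TN and MT-TY, which were singled out after their values were seen. They held 3945 of the 4081 minus strand counts in LNCAP and 3652 of 3668 in PC3. The other 4 minus strand genes, MT-TQ, MT-TA, MT-TS1 and MT-TE, summed to 136, 16 and 73 counts and were 8.31-fold lower in PC3 (4.94 to 15.0).

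MT-TC, for cysteine, stood at 112 CPM in LNCAP, 93.6 in PC3 and 93.5 in DU145. It was 1.19-fold lower than in LNCAP in PC3 (1.11 to 1.28), and the PC3 and DU145 levels did not differ beyond counting error. MT-TN, for asparagine, stood at 43.0, 35.7 and 31.0 CPM. MT-TY, for tyrosine, stood at 22.1 CPM in LNCAP, 15.3 in PC3 and 30.4 in DU145, so that LNCAP lay between the other lines. MT-TC, MT-TN and MT-TY lie in 1 cluster with MT-TA, which had 10, 0 and 5 counts. MT-TP, for proline, lies at the other end of the map and stood at 75.5 CPM in LNCAP, 94.3 in PC3 and 39.5 in DU145. It was the only tRNA gene highest in PC3, at 1.25 times the LNCAP level (1.16 to 1.35) and 2.39 times that of DU145 (2.17 to 2.63). It was also the member at least 2-fold higher in PC3 than in DU145, where 18.5% of all genes tested were.

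MT-TL1, for leucine, stood at 43.7 CPM in LNCAP, 12.6 in PC3 and 15.0 in DU145. It was 3.46-fold lower in PC3 (2.94 to 4.08) and 2.91-fold lower in DU145 (2.51 to 3.39). The rRNA gene before it, MT-RNR2, was 2.83-fold and 2.20-fold lower. MT-TV, for valine, lies between the rRNA genes and stood at 11.6, 1.11 and 5.30 CPM, 10.4-fold lower in PC3 (6.32 to 18.3) and 2.19-fold lower in DU145 (1.68 to 2.87). MT-TG, MT-TR and MT-TH, for glycine, arginine and histidine, lie beside MT-CO3, MT-ND3, MT-ND4L and MT-ND4. They were 3.02-fold to 4.31-fold lower in PC3 and 2.47-fold to 3.23-fold lower in DU145. Together with MT-TQ and MT-TL2 below, these 5 were the tested tRNA genes at least 2-fold lower than LNCAP in both lines. MT-TQ and MT-TL2 reached 1 CPM in LNCAP alone, so their place among the tested genes rested on that library and supports nothing.

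Further tRNA genes were low in PC3 above all. MT-TI, for isoleucine, had 68, 6 and 47 counts, 11.1-fold lower in PC3 (4.84 to 31.3). MT-TT, for threonine, had 83, 10 and 58 counts, 8.12-fold lower (4.199 to 17.5). MT-TE, for glutamic acid, had 79, 14 and 43 counts, 5.52-fold lower (3.10 to 10.6). With fewer counts the intervals widened.
MT-TD, for aspartic acid, had 36, 2 and 31 counts, a fold of 17.6 (4.53 to 151), and MT-TM, for methionine, 45, 1 and 23 counts, a fold of 43.999 (7.50 to 1776). MT-TS1, for serine, had 20, 2 and 13 counts, a fold of 9.78 (2.38 to 86.3). MT-TQ, for glutamine, had 27 counts in LNCAP, none in PC3 and 12 in DU145, and was at least 8.80-fold lower in PC3. MT-TL2, another leucine tRNA, had 24, 5 and 5 counts, 4.69-fold lower in PC3 (1.76 to 15.7) and 4.81-fold lower in DU145 (1.80 to 16.1). In PC3 against DU145, 8 tRNA genes were at least 2-fold lower, beside 19.3% of all genes tested, and with MT-TP 9 members were apart either way, beside 37.8%. At 4-fold, 10 tRNA genes were lower in PC3 than in LNCAP (26.3% of all genes tested either way), MT-TL2 was lower in DU145 than in LNCAP (25.8%), and 7 were lower in PC3 than in DU145 (19.1%).

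**Figure D4:**
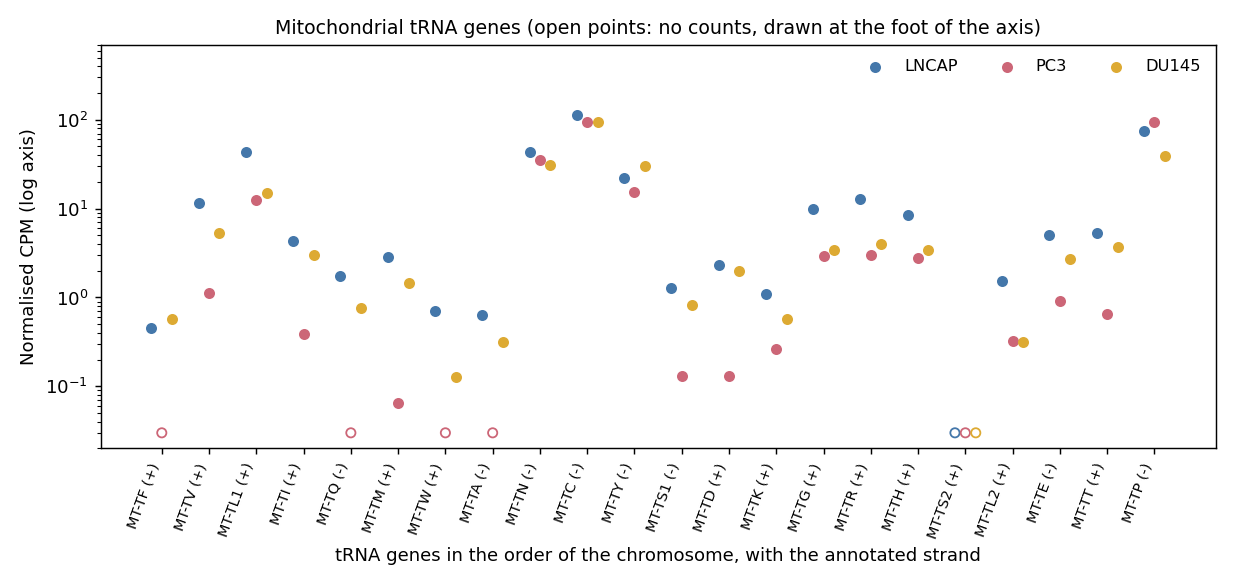
Normalised CPM (log axis) of the 22 mitochondrial tRNA genes in chromosome order with their annotated strand, in the LNCAP, PC3 and DU145 libraries; open points at the foot mark genes with no counts. MT-TC lies at 93.5 to 112 CPM with the 3 libraries close together and MT-TP is the gene with PC3 on top, while PC3 is lowest for 17 of the 22 genes.

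Nuclear copies of mitochondrial genes can share reads with them. Annotated copies summed to 4986, 3945 and 5073 counts (LNCAP, PC3, DU145), small beside the 1226275, 666536 and 888509 counts of the mitochondrial chromosome. The most counts came from 3 genes of a segment on chromosome 1, MTND2P28 (629640 to 630683), MTCO1P12 (631074 to 632616) and MTATP6P1 (633696 to 634376). MTND2P28 stood at 143 CPM in LNCAP, 141 in PC3 and 175 in DU145, MTATP6P1 at 132, 83.2 and 126 CPM, and MTCO1P12 at 29.7, 23.9 and 19.3 CPM. Each followed the order of its mitochondrial gene except that MTND2P28 was slightly lower in PC3 than in LNCAP. Reads of the copies and of the genes cannot be told apart here.

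The proteins that copy, transcribe and process mitochondrial RNA come from nuclear genes, and as a whole these did not share the low level of the rRNAs. Of 63 tested genes in 6 lists, 6 were at least 2-fold higher and 3 lower in PC3 than in LNCAP, with a median log2 ratio of -0.07. In DU145 4 were higher and 8 lower, with a median of -0.07. By list, the 5 RNA processing genes had the lowest median, -0.55 in PC3 and -0.52 in DU145. The highest were 0.17 in PC3 (tRNA and rRNA modification) and 0.59 in DU145 (nuclear regulators). The background was 22.6% higher and 23.6% lower in PC3, and 22.9% higher and 23.1% lower in DU145.

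In the list of transcription factors of the organelle, POLRMT, the RNA polymerase, stood at 111 CPM in LNCAP, 105 in PC3 and 131 in DU145. Its partner TFB2M, which opens the promoter, stood at 42.7, 46.3 and 41.2 CPM, and MTERF1, the termination factor, at 16.6, 15.8 and 13.9 CPM. These 3 were close in all libraries. Of the 7 genes listed, only MTERF4, which works with NSUN4 on the large rRNA, was at least 2-fold apart from LNCAP. It stood at 98.4, 13.5 and 20.8 CPM, a ratio of 0.137 in PC3 (0.118 to 0.158) and 0.211 in DU145 (0.187 to 0.239). It overlaps SNED1 on the other strand, so its counts are uncertain. Short of 2-fold, TEFM was at 0.533 times the LNCAP level in PC3 (0.406 to 0.695) and MTERF3 at 1.94 times (1.71 to 2.20). TFAM, which packs the DNA and starts transcription, stood at 115 CPM in LNCAP, 154 in PC3 and 80.4 in DU145.

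Among 14 mtDNA maintenance genes, 2 were at least 2-fold higher in PC3, TOP1MT, the mitochondrial topoisomerase (19.5, 71.6 and 36.5 CPM in LNCAP, PC3 and DU145), and POLG2, the accessory subunit of the DNA polymerase (20.02, 43.2 and 31.1 CPM). In DU145, RNASEH1 and DGUOK were higher, at 2.13 and 2.01 times the LNCAP level, and SLC25A4 and RRM2B lower, at 0.279 and 0.371 times. Of 5 RNA processing genes, those for the RNase P proteins TRMT10C (64.0, 40.1 and 22.9 CPM) and HSD17B10 (91.7, 57.9 and 44.6 CPM) were at least 2-fold lower in DU145. The gene for their nuclease partner, KIAA0391, was higher there (11.5, 16.2 and 31.1 CPM).

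Of 16 genes for RNA stability and polyadenylation, FASTKD1 was at least 2-fold lower in PC3, and FASTKD5 and PDE12, which trims poly(A) tails, in DU145. LRPPRC, which with SLIRP binds and stabilises the mRNAs, stood at 264 CPM in LNCAP and in PC3 and at 458 CPM in DU145, and SLIRP at 44.4, 22.4 and 38.2 CPM. Of 16 genes for tRNA and rRNA modification, TRNT1, which adds the CCA end to tRNAs, was at least 2-fold lower in both lines (69.7, 27.4 and 31.1 CPM). TRMT5 and CDK5RAP1 were at least 2-fold higher in PC3 and MRM1, an rRNA methyltransferase gene, in DU145. Of the 5 nuclear regulators tested, NRF1 (14.8, 38.8 and 22.4 CPM) and GABPA (34.2, 93.5 and 65.3 CPM), factors that switch on nuclear genes of mitochondria, were at least 2-fold higher in PC3. TRNT1, GABPA and several others overlap genes on the other strand. KIAA0391, RNASEH1, HSD17B10 and FASTKD5, among others, overlap genes on the same strand. Reads of such pairs could be shared.

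**Figure D5:**
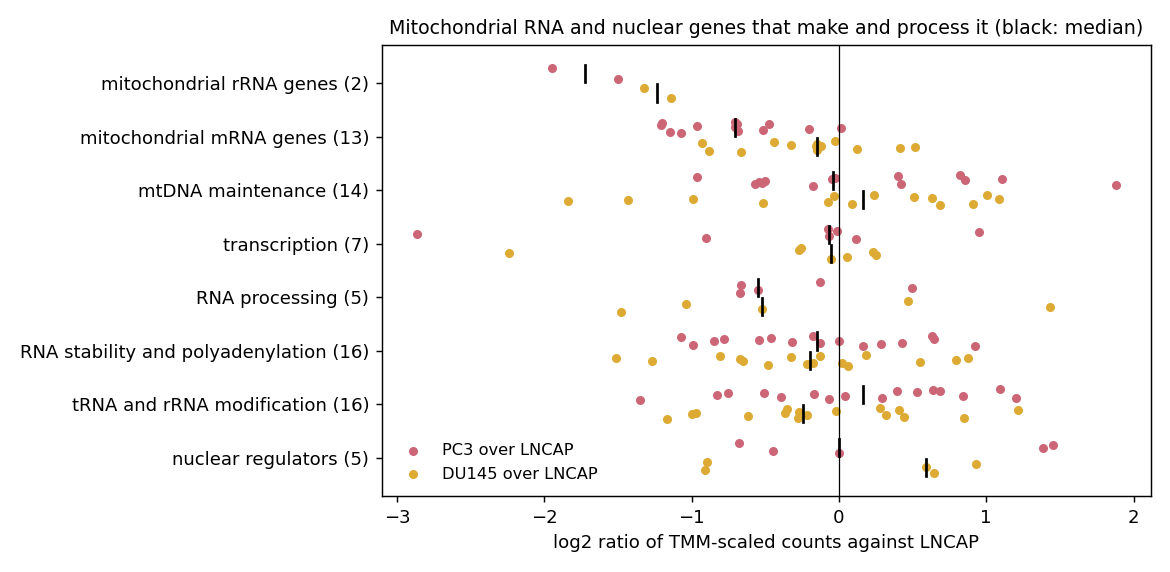
Log2 ratio of TMM-scaled counts against LNCAP for the mitochondrial rRNA and mRNA genes and for 6 lists of nuclear genes that copy, transcribe, process or regulate the mitochondrial genome, in PC3 and DU145; each point is a gene and black bars are medians. The rRNA medians lie at -1.72 and -1.23, while the medians of the nuclear lists lie between -0.55 and 0.59.

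The class comparison set PC3 and DU145 together against LNCAP, as the series design does. edgeR's quasi-likelihood test had 1 residual degree of freedom, which is the difference between PC3 and DU145. It called none of the 33 members at an adjusted p of 0.05, beside 0.0% of all genes tested. No member had an unadjusted p under 0.05 in this test, beside 1746 of the 18025 genes tested. The smallest adjusted p in edgeR's quasi-likelihood test (Benjamini-Hochberg) was 0.539, for MT-TL1, at a log2 difference of -1.66. The rRNA genes MT-RNR1 and MT-RNR2 differed by -1.60 and -1.31 on the log2 scale, lower in both lines. DESeq2 also called no member, and it put 2, MT-RNR1 and MT-RNR2, under an unadjusted p of 0.05, beside 2534 of the 18025 genes tested. It gave no adjusted p for 4 members, MT-TQ, MT-TS1, MT-TK and MT-TL2, and called 1302 of the 15229 genes that had one. For the mRNA genes the median log2 difference was -0.40, and it was -0.15 without PC3 and -0.70 without DU145, values with no test.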

How the data were processed

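The authors deposited raw read counts per gene for each of 3 libraries, whole numbers with no normalization, and FPKM values, which equalled the deposited counts divided by the gene's length and a constant for the library (1.034, 1.005 and 0.988 times the total in LNCAP, PC3 and DU145). Per the submitters' processing notes, the tools were TopHat2 2.0.9, Bowtie2 2.0.6, Cuffdiff 2.1.1 and Cufflinks 2.1.1, whose roles are not stated. Not given in the sources used here are the counting program, its strand setting, how it treated reads with several matches, and the build. Coordinates are those of the files, and they equalled GENCODE release 29 (GRCh38).

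TMM factors were 1.016, 0.998 and 0.987 (edgeR 4.0.16, R 4.3.3). Ratios of scaled counts carry exact conditional binomial 95% intervals (Python 3.11.15, scipy 1.17.1), and log2 ratios have 0.5 counts added. A gene was called at least 2-fold apart when its log2 ratio was 1 or more in size and the interval excluded 1. Folds against 0 counts use 3 counts. PC3 and DU145 were set against LNCAP with edgeR's quasi-likelihood test, and DESeq2 1.42.0 was the alternative. Without molecular identifiers, reads need not be independent molecules. Ratio calls and the edgeR fit were tested on simulated data.

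All mRNA and rRNA genes are named, with the 5 tRNA genes of highest summed count, tRNA genes at least 2-fold apart with 20 counts or more in a library, and from the nuclear lists TFAM, POLRMT, TFB2M, LRPPRC, SLIRP and, per list, up to 3 members each way with the largest ratios among those at least 2-fold apart. MTERF1, MT-TA, the group of 4 tRNA genes, the nuclear copies and the subunit genes in the closing section were shown after their values were seen. PRORP was matched by its older symbol KIAA0391. Alternatives changed the scaling, the low-count filter, the fold, the unit and the pooling of overlapping genes. Members and lists were chosen with earlier results of these data known.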

Additional observations from a re-analysis of the deposited data

Results flagged for a closer look

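For 4 members the level lay on opposite sides of LNCAP in PC3 and DU145 beyond counting error, and this difference between the lines was not tested across replicates. The log2 ratio of MT-ND3 was -0.20 in PC3 and 0.42 in DU145, that of MT-ND4 -0.51 and 0.12, and that of MT-TY -0.53 and 0.46. MT-TP went the other way, with 0.32 in PC3 and -0.93 in DU145. Both comparisons share the LNCAP library.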

How the results depend on the processing

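The mRNA median log2 ratio kept its sign in every comparison under the alternatives run. In PC3 against LNCAP (main value -0.70) it was -0.69 with DESeq2 size factors, -0.73 with total counts, -0.78 with totals off the mitochondrial chromosome and -0.69 on FPKM. In DU145 against LNCAP (main value -0.15) these were -0.12, -0.19, -0.23 and -0.12. In PC3 against DU145 (main value -0.55) DESeq2 size factors gave -0.56, total counts -0.53 and FPKM -0.56. Of members at least 2-fold apart, 20 of 33 in PC3 against LNCAP became 13 of 26 with a 5 CPM filter, beside 5685 of 13377 genes. At 4-fold they became 10 of 33, beside 4746 of 18025 genes. In DU145 against LNCAP, 9 of 33 became 1 at 4-fold (MT-TL2, from 24 and 5 counts), beside 4651 of 18025 genes. In PC3 against DU145, 9 of 33 became 4 of 26 with a 5 CPM filter, beside 4581 of 13377 genes. These filters and folds leave fewer genes by construction. The mitochondrial share of 7.97%, 4.35% and 5.60% in LNCAP, PC3 and DU145 was 6.28%, 3.77% and 4.85% without the rRNA genes and 7.999%, 4.38% and 5.63% with nuclear copies added. Summing overlapping pairs gave MT-ND4 with MT-ND4L 15.2%, 17.1% and 20.3% of mRNA counts, and MT-ATP6 with MT-ATP8 6.95% in LNCAP. The sign of 3 of 108 ratios turned with the scaling, MT-ND2 in PC3 against LNCAP, MT-ATP6 in DU145 against LNCAP and MT-TC in PC3 against DU145. Across genes, edgeR called none and DESeq2 1302 in the class comparison. No paired analysis was possible because the labels give no replicate numbers and each line has 1 library. Depth limits the tRNA genes, where a count of 0 allows up to 3 counts.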

Other observations

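The nuclear partners of the mitochondrial subunits were also read, from lists of the subunits of each complex. Of 72 nuclear subunit genes of complexes I, III, IV and V, 11 were at least 2-fold lower and 2 higher in PC3 than in LNCAP, and 14 lower and 1 higher in DU145. Of all genes tested, 23.6% were at least 2-fold lower in PC3 and 23.1% in DU145, so the counts of lower subunit genes were not above the background. The median log2 ratio of the 72 genes was -0.40 in PC3 and -0.48 in DU145, beside -0.01 and -0.00334 over all genes tested. Complex III genes had a median of -0.92 in PC3 and -0.67 in DU145, with UQCRC2, UQCRFS1, UQCRQ and UQCR11 at least 2-fold lower in PC3. MT-CYB, the mitochondrial member of this complex, stood at log2 ratios of -0.97 and -0.12. UQCR11 and others of the 72 genes overlap protein-coding genes on the same strand, so their counts are uncertain. Nuclear complex IV genes had medians of -0.38 and -0.59 in PC3 and DU145, complex I genes of -0.30 and -0.45 and ATP synthase genes of -0.57 and -0.31. The 4 genes of complex II, which has no mitochondrially encoded subunit, had medians of 0.29 and 0.35, and none was 2-fold apart.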
